A study of Homo sapiens with 6 samples.

Results

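The mRNAs of 10 stress granule genes around G3BP were followed in SH-SY5Y human neuroblastoma cells after knockdown of PSF, an RNA-binding protein of the nucleus encoded by SFPQ. The genes were taken by symbol: G3BP1, G3BP2, TIA1, TIAL1, CAPRIN1, USP10, UBAP2L, ATXN2, FMR1 and PABPC1. Each had a row of its own in the deposited table, so they make up 10 of its 21301 genes. Cells were transfected for 72 h with 10 nM of either a control siRNA (siControl, 3 libraries) or a siRNA against PSF (siPSF, 3 libraries), and poly(A) RNA was sequenced. The study's methods describe the libraries as biological triplicates, and name 1 siRNA sequence against PSF for the sequencing, so an effect of PSF loss and an effect of that sequence on other mRNAs cannot be told apart. No stress treatment was given to the sequenced cells, and every value below is an mRNA level, not a protein level or a count of granules.

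Stress granules are cytoplasmic assemblies of mRNA and protein that form when translation initiation stops, typically after phosphorylation of eIF2. G3BP1 and G3BP2 are the paralogous RNA-binding proteins that nucleate them: CAPRIN1 and UBAP2L bind G3BP and favour assembly, whereas USP10 binds the same surface and opposes it. TIA1, TIAL1, ATXN2, FMR1 and the poly(A)-binding protein PABPC1 are RNA-binding proteins that enter the granules with the stalled mRNAs.

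The promoters of G3BP1 and G3BP2 are shown because these paralogs are the centre of the gene set and because the data compare their levels. The RefSeq promoter table of GRCh38.p14 (windows running from upstream of a transcription start to just past it) had an entry for 8 of the 10 genes. Short motifs were searched on both strands: CCAAT, which reads ATTGG on the other strand, CCGGAA, which reads TTCCGG, and CACGTG, which is the same on both. The first binds the factor NF-Y, the second ETS factors and the third E-box factors. The forms CCGGAA and TTCCGG can share bases with each other, and each start of a match was counted. Capitals mark the first motif and the second, on either strand, in the sequences below, which are written 5′ to 3′ on the strand of the gene. The G3BP1 window lies at chr5:151771704-151772003 on the plus strand, and the G3BP2 window at chr4:75673546-75673845 on the minus strand.
G3BP1: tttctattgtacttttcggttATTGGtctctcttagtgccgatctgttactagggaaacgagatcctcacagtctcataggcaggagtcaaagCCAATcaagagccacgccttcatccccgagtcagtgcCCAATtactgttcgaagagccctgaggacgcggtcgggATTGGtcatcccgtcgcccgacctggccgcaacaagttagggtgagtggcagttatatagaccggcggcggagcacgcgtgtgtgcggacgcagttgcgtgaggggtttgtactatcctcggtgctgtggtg
G3BP2: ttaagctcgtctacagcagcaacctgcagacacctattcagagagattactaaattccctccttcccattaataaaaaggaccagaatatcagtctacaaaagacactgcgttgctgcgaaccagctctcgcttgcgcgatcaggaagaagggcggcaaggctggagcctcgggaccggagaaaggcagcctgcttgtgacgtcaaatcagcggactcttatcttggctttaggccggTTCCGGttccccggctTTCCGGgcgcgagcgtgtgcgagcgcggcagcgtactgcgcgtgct
The G3BP1 window held 4 CCAAT or ATTGG matches and no CCGGAA or TTCCGG. Of 34796 promoters of the same length, 0.994% held 4 or more such matches and 34.6% held at least 1. The G3BP2 window held no CCAAT or ATTGG and 2 matches to TTCCGG, whereas 4.23% of promoters held 2 or more and 17.2% at least 1. The G3BP2 entry is 1 of 5 listed starts, the nearest to the start of its MANE Select transcript (the reference isoform chosen jointly by RefSeq and GENCODE), from which it lies 184 bases away. Among the 8 genes with an entry, 2 held CCAAT or ATTGG (G3BP1 and TIA1), 5 held CCGGAA or TTCCGG and 2 held CACGTG (UBAP2L and FMR1), against 7.2% of all promoters for the last motif. Matches are a description of these letters and not of binding.

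The libraries held between 101541000 and 132421000 counts, and levels are given as CPM, counts scaled to library size with TMM factors. In each group replicate 3 stood further from replicates 1 and 2 than these did from each other (chi-square per degree of freedom 56.9–63.8 against 21.7 and 34.9). SFPQ was present at 372, 356 and 401 CPM in siControl replicates 1 to 3 and at 209, 193 and 165 CPM in siPSF replicates 1 to 3. The siPSF level was therefore 50.2% of the siControl level (log2 fold change -0.99, SE 0.10, adjusted p = 9.5e-05 with edgeR's quasi-likelihood test and Benjamini-Hochberg adjustment over the 19694 genes tested). Markers of the labelled neuroblast line summed to 3876–4403 CPM in siControl and 3336–3810 CPM in siPSF, with 8 of 8 tested. Within this list DBH fell from 1738 to 1085 CPM (adjusted p = 0.0024 with edgeR), TH fell from 0.741 CPM in siControl (adjusted p = 0.025), GATA3 rose from 400 to 493 CPM (adjusted p = 0.032), and the other 5 did not pass the test, among them HAND2 at 1176 and 1174 CPM. Summed mesenchymal markers (6 of 6 tested) were at 47.2–67.6 against 44.1–50.8 CPM, and immune markers (2 of 5 with a row) at 2.76–4.01 against 3.55–4.76 CPM. Epithelial markers (1 of 3 tested) were at 1.73–2.38 against 2.74–4.40 CPM, and none of the 4 endothelial markers had a row. The epithelial marker tested, EPCAM, rose from 2.06 to 3.73 CPM (adjusted p = 0.014 with edgeR). Among the mesenchymal markers COL3A1 fell from 5.39 to 3.30 CPM (adjusted p = 0.047 with edgeR). The other 5 mesenchymal and the 2 immune markers did not pass. The part of these values in the results was not tested, and in bulk RNA fewer cells of a type and less RNA per cell cannot be told apart.

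To see whether PSF knockdown changed the stress granule genes, each gene was tested in the fit over all genes. Only PABPC1 rose, to 145% of the siControl level, and none of the 10 fell at an adjusted p under 0.05. All 10 passed the filter on low counts. Of all 19694 genes tested, 14.9% were called, 8.27% lower and 6.65% higher. The count of 1 in 10 is thus near the background. The median log2 fold change of the 10 genes was 0.11, beside 0.0097 over all genes. The siControl and siPSF libraries did not overlap for 3 genes (ATXN2 lower, TIAL1 and PABPC1 higher), against 34.4% of all genes tested, of which 17.8% lower and 16.7% higher.

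**Figure D1:**
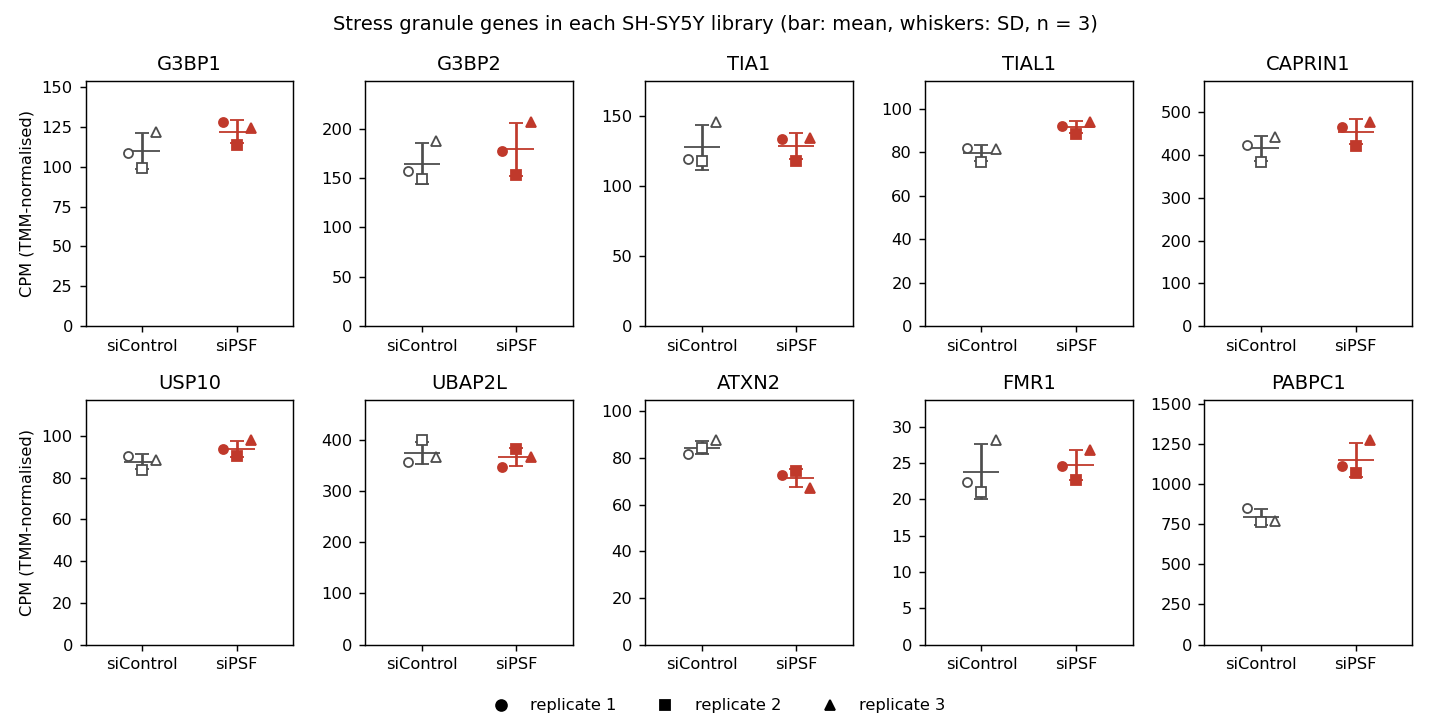
Level of each of the 10 stress granule genes in CPM (y axis, from 0) in the siControl and siPSF libraries, with a symbol per replicate, the mean as a horizontal bar and the SD as whiskers (n = 3). The groups are separate for TIAL1, ATXN2 and PABPC1 and overlap for the other 7 genes.

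G3BP1 and G3BP2, the nucleators, did not pass the test. G3BP1 (gene ID 10146, chr5:151771954-151812785) was at 109, 99.4 and 122 CPM in siControl and at 128, 114 and 124 CPM in siPSF. Its groups overlapped, with siControl replicate 3 above siPSF replicate 2, and the means were 110 ± 11.5 and 122 ± 7.35 CPM (SD, n = 3). The log2 fold change was 0.15 (SE 0.09, 95% interval -0.05 to 0.35, adjusted p = 0.31 with edgeR). Its retrocopy G3BP1P1 held 124–251 counts per library, at most 1.63% of the G3BP1 counts. G3BP2 (gene ID 9908, chr4:75642786-75724437) was at 157, 150 and 188 CPM in siControl and at 178, 153 and 207 CPM in siPSF. The spread within each group was wider than the gap between the means of 165 ± 20.5 and 179 ± 27.2 CPM (SD, n = 3). Its log2 fold change was 0.12 (SE 0.12, 95% interval -0.14 to 0.38, adjusted p = 0.54 with edgeR). Leaving out single libraries moved G3BP1 between 0.07 and 0.23 and G3BP2 between 0.0052 and 0.22. On FPKM values scaled to an equal sum per library, both were slightly below 0, at -0.037 and -0.076, where the median of all genes was -0.16.

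The ratio of the paralogs was compared per exon length, since reads scale with the length of an mRNA. In FPKM, the fragments scaled to exon length and mapped reads by the authors, G3BP2 was 3.42, 3.57 and 3.65 times G3BP1 in siControl and 3.28, 3.17 and 3.95 times G3BP1 in siPSF. G3BP2 mRNA thus exceeded G3BP1 mRNA in every library, and the ratio overlapped between groups (3.55 ± 0.117 and 3.47 ± 0.421, SD, n = 3). The difference of the log2 ratios was -0.04 (exact two-sided permutation test, p = 0.8, with 0.1 the smallest p that 3 against 3 allows). The exon length that the table implies was 11.2–11.3 kb for G3BP1 and 4.74–4.79 kb for G3BP2, against 10.2 and 4.32 kb in the MANE Select transcripts. With the MANE lengths the ratio was 3.54 ± 0.115 in siControl and 3.47 ± 0.420 in siPSF (SD, n = 3). The lengths of the 2 genes stand in nearly the same proportion in both sources, so this is not an independent check. In counts, without any length, G3BP2 was 1.44, 1.51 and 1.54 times G3BP1 in siControl. In siPSF it was 1.39, 1.34 and 1.67 times G3BP1. The order thus held without a length, whereas the size of the ratio rests on the long exon length of G3BP1.

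The G3BP partners CAPRIN1, USP10 and UBAP2L did not pass the test either. CAPRIN1 (chr11:34051731-34102610), which promotes granule assembly, was at 423, 383 and 442 CPM in siControl and 466, 421 and 478 CPM in siPSF. The groups overlapped, and the log2 fold change was 0.13 (SE 0.09, 95% interval -0.07 to 0.32, adjusted p = 0.37 with edgeR). USP10 (chr16:84700000-84779922), a deubiquitinase that opposes assembly, was at 90.5, 83.5 and 88.5 CPM and then at 93.6, 90.2 and 97.9 CPM. Only siControl replicate 1 reached into the siPSF range, and the log2 fold change was 0.10 (SE 0.08, 95% interval -0.07 to 0.27, adjusted p = 0.43 with edgeR). UBAP2L (chr1:154220172-154271510), which binds G3BP and favours assembly, was at 358, 400 and 367 CPM in siControl and 348, 383 and 368 CPM in siPSF. Its means of 375 ± 22.0 and 366 ± 17.8 CPM (SD, n = 3) gave a log2 fold change of -0.03 (SE 0.08, 95% interval -0.22 to 0.15, adjusted p = 0.83 with edgeR). UBAP2L was called lower in 1 alternative only, on FPKM scaled to an equal sum (-0.22, adjusted p = 0.032 with limma), where 23.0% of all genes were called lower.

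TIA1 and TIAL1 are paralogous RNA-binding proteins with a prion-like tail that sequester mRNAs in granules. TIA1 (chr2:70209444-70248793) was at 119, 118 and 146 CPM in siControl and 133, 118 and 135 CPM in siPSF. The siPSF libraries lay within the siControl range, and the log2 fold change was 0.012 (SE 0.10, 95% interval -0.21 to 0.23, adjusted p = 0.96 with edgeR). TIAL1 (chr10:119573465-119596964) was at 82.1, 75.5 and 81.5 CPM in siControl and 92.3, 88.5 and 94.1 CPM in siPSF. Every siPSF library was above every siControl library, with means of 79.7 ± 3.63 and 91.6 ± 2.85 CPM (SD, n = 3). The log2 fold change of 0.20 (SE 0.08, 95% interval 0.03 to 0.37) had an unadjusted p = 0.025 and an adjusted p = 0.11 with edgeR, and it was at -0.0018 on FPKM scaled to an equal sum, beside a median of -0.16 over all genes. The ratio of TIAL1 to TIA1 in FPKM was 0.951 ± 0.0893 in siControl and 1.10 ± 0.0745 in siPSF (SD, n = 3; exact two-sided permutation test, p = 0.2). An overlapping gene, LOC105378512, shares its position with TIAL1 and held 194–371 counts per library, at most 3.61% of the TIAL1 counts. The sources used here do not say whether counting used strand.

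ATXN2 and FMR1 are RNA-binding proteins whose repeat expansions cause neurological disease. ATXN2 (gene ID 6311, chr12:111452214-111599673) was at 81.7, 84.1 and 87.5 CPM in siControl and 72.6, 74.2 and 67.1 CPM in siPSF. Every siPSF library was below every siControl library, and the siPSF level was 84.5% of the siControl level (84.4 ± 2.92 and 71.3 ± 3.72 CPM, SD, n = 3). The log2 fold change was -0.24 (SE 0.08, 95% interval -0.42 to -0.07), with an unadjusted p = 0.010 and an adjusted p = 0.062 with edgeR, so ATXN2 missed the threshold. It was below 0 in all 12 alternatives (-0.43 to -0.20) and past the threshold in 3. These were the DESeq2 Wald test (-0.25, adjusted p = 0.046), limma on log2(FPKM + 0.5) (-0.32, adjusted p = 0.025) and limma on FPKM scaled to an equal sum (-0.43, adjusted p = 0.010). Those fits called 10.7%, 12.0% and 23.0% of their genes lower. The antisense gene ATXN2-AS held 23–51 counts per library, at most 0.514% of the ATXN2 counts. Leaving out single libraries, edgeR gave an adjusted p between 0.095 and 0.15.

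At 147 kb, ATXN2 is the longest of the 10 genes and the only one over 100 kb. Protein-coding genes of 100 to 200 kb had a median log2 fold change of -0.11, with 16.6% called lower and 2.87% higher. In the class of 30 to 100 kb, which holds 7 of the 10 genes, the median was 0.0041, with 6.65% called lower and 5.65% higher. The part of gene length in the ATXN2 value was not tested. FMR1 (chrX:147911919-147951125), the fragile X protein that represses translation, was the least abundant of the 10 genes, at 22.4, 21.0 and 28.1 CPM in siControl and 24.6, 22.7 and 26.8 CPM in siPSF. The siPSF libraries lay inside the siControl range, and the log2 fold change was 0.05 (SE 0.12, 95% interval -0.21 to 0.32, adjusted p = 0.81 with edgeR).

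PABPC1 binds the poly(A) tail of mRNAs and is the gene of the set that rose. PABPC1 (gene ID 26986, chr8:100702916-100722088) was at 852, 764 and 773 CPM in siControl and at 1116, 1067 and 1273 CPM in siPSF. The lowest siPSF library stood clear of the highest siControl library, and the means were 796 ± 48.4 and 1152 ± 108 CPM (SD, n = 3). The log2 fold change was 0.53 (SE 0.09, 95% interval 0.33 to 0.74, adjusted p = 0.0030 with edgeR). PABPC1 was called higher in all 12 alternatives, at 0.34 to 0.59 with adjusted p-values from 1.0e-05 to 0.023. The copies PABPC1P3, PABPC1P4 and PABPC3 had rows, with 35–63 counts per library together and at most 0.0502% of the PABPC1 counts. Counts from copies without a row could not be separated here. PABPC1 spans 19.2 kb, and protein-coding genes of 10 to 30 kb had a median log2 fold change of 0.06, with 8.27% called higher and 3.70% lower.

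**Figure D2:**
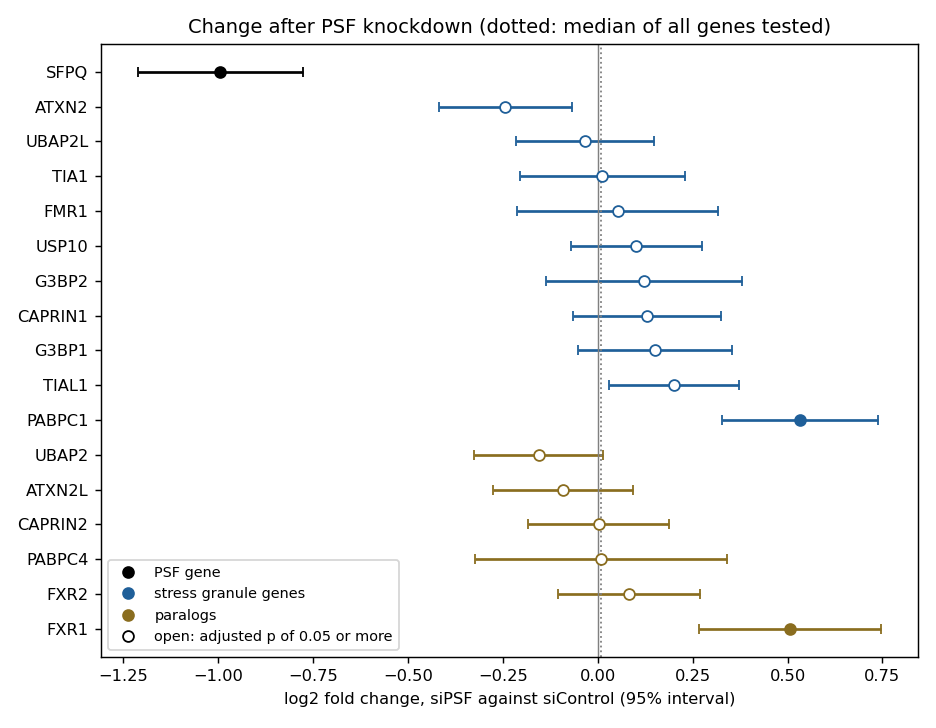
Log2 fold change of siPSF against siControl (x axis) for SFPQ, the 10 stress granule genes and 6 paralogs, with 95% intervals from the edgeR fit. Filled points passed an adjusted p under 0.05: SFPQ at -0.99, PABPC1 at 0.53 and FXR1 at 0.51. The intervals of ATXN2 and TIAL1 lie beside 0 without passing that threshold, and the dotted line is the median of all genes tested, 0.0097.

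The 10 genes together took 0.219–0.245% of the counts in siControl and 0.244–0.279% in siPSF. Summed, they were at 2178–2324 CPM in siControl and at 2532–2871 CPM in siPSF, which did not overlap. Without PABPC1 the sums were 1414–1551 and 1465–1598 CPM, which did. The libraries also differed within their groups across several genes. Replicate 2 was the lowest library for 8 of the 10 genes in each group, while siControl replicate 3 was the highest siControl library for 6 and siPSF replicate 3 the highest siPSF library for 7. Pearson's r of log2 CPM over the 6 libraries was 0.95 between G3BP1 and CAPRIN1 and 0.80 between G3BP1 and G3BP2. It was -0.99 between ATXN2 and PABPC1. All of these correlations share the same 6 libraries and the group difference, and are given as a description.

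**Figure D3:**
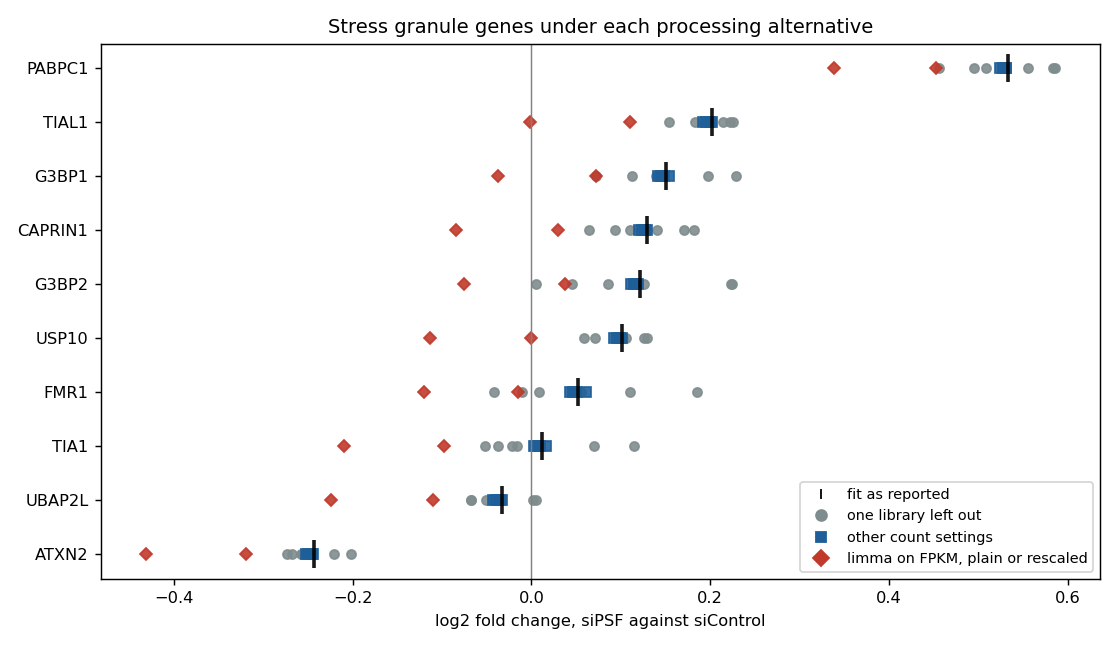
Log2 fold change of each of the 10 stress granule genes (x axis) in the fit as reported and in 12 alternatives: 6 fits with 1 library left out, 4 other settings on counts and limma on FPKM, plain or scaled to an equal sum. PABPC1 stays between 0.34 and 0.59 and ATXN2 between -0.43 and -0.20, whereas the points of the 8 other genes reach both sides of 0.

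Paralogs of the members were measured to see whether related genes moved alike. FXR1, a relative of FMR1, was the paralog that rose among 6 tested, and none fell in the edgeR fit. Over all genes tested, 6.65% were called higher and 8.27% lower. FXR1 was at 57.3, 51.8 and 60.5 CPM in siControl and 79.2, 69.1 and 92.7 CPM in siPSF, with no overlap between the groups. Its log2 fold change was 0.51 (SE 0.11, adjusted p = 0.0097 with edgeR). The call was lost without siControl replicate 2 (0.44, adjusted p = 0.065), with limma on log2(FPKM + 0.5) (0.48, adjusted p = 0.058) and on FPKM scaled to an equal sum (0.37, adjusted p = 0.14). The exon length implied by the table for FXR1 moved from 3.68 to 5.25 kb between libraries, which makes its FPKM values uncertain. The other paralogs were FXR2 (0.08, adjusted p = 0.57 with edgeR), PABPC4 (0.0088, 0.98), ATXN2L (-0.09, 0.51), UBAP2 (-0.16, 0.20) and CAPRIN2 (0.0025, 0.99). On FPKM scaled to an equal sum, ATXN2L (-0.29, adjusted p = 0.011 with limma) and UBAP2 (-0.34, 0.010) were called lower. PABPC4, a second cytoplasmic poly(A)-binding protein, was at 176, 193 and 176 CPM in siControl and 151, 153 and 243 CPM in siPSF. Its siPSF replicate 3 stood above the siControl libraries and the other siPSF libraries below them.

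Each ratio of paralog to member in FPKM was tested over the 6 libraries, for 8 pairs. In 4 pairs the groups did not overlap. For single genes, 34.4% of all those tested did not overlap in CPM, and no such share was computed for ratios of other genes. A pair without overlap has p = 0.1, the smallest value of the exact two-sided permutation test at 3 against 3. Its adjusted p is 0.2 over the 8 pairs, so the design could not reach 0.05. The ratio of PABPC4 to PABPC1 was 0.210 ± 0.0212 in siControl and 0.144 ± 0.0277 in siPSF (SD, n = 3), a log2 difference of -0.56. It largely restates the change of PABPC1, which was at 0.53 in the edgeR fit, with PABPC4 at 0.0088. FXR1 to FMR1 went from 2.67 ± 0.377 to 3.78 ± 0.171 (SD, n = 3), a log2 difference of 0.51 that was 0.44 on counts. The size of this ratio depends on the exon length of FXR1, which is 8.34 kb in its MANE Select transcript. In CPM per kilobase of the MANE transcripts, FXR1 was at 6.21–7.25 and FMR1 at 4.72–6.33 in siControl. In siPSF they were at 8.28–11.1 and 5.10–6.05. The log2 difference was 0.16 for ATXN2L to ATXN2 and -0.13 for UBAP2 to UBAP2L. The ratios of G3BP2 to G3BP1, TIAL1 to TIA1, FXR2 to FMR1 and CAPRIN2 to CAPRIN1 overlapped between groups. On counts, TIAL1 to TIA1 also separated, so that 5 of the 8 pairs did.

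Levels of the 10 genes were ordered by FPKM over the 6 libraries. PABPC1 was highest, at a mean of 307 FPKM (245 to 390), followed by UBAP2L at 89.2 (82.8 to 97.6) and CAPRIN1 at 76.1 (67.7 to 82.7). G3BP2 followed at 36.2 FPKM (31.1 to 42.1) and USP10 at 24.5 (23.0 to 25.4). TIAL1 at 18.7 FPKM (16.8 to 19.8) overlapped TIA1 at 18.4 (16.2 to 21.8) over the 6 libraries. TIA1 in turn overlapped ATXN2 at 16.5 FPKM (13.6 to 19.5). Within the siPSF libraries alone, ATXN2 (13.6 to 15.1 FPKM) lay below TIA1 (16.2 to 19.3) and TIAL1 (18.8 to 19.8). G3BP1 was at 10.3 FPKM (8.92 to 11.4) and FMR1 last at 5.04 (4.39 to 6.15). The other 7 pairs of neighbours did not overlap, although UBAP2L and CAPRIN1 did once the FPKM were scaled to an equal sum. With CPM per kilobase of the MANE Select transcript, TIA1 moved level with USP10 and above TIAL1 (27.7, beside 27.3 and 22.4), because the table implies 6.79–7.43 kb of exon for TIA1 against 4.63 kb in that transcript.

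**Figure D4:**
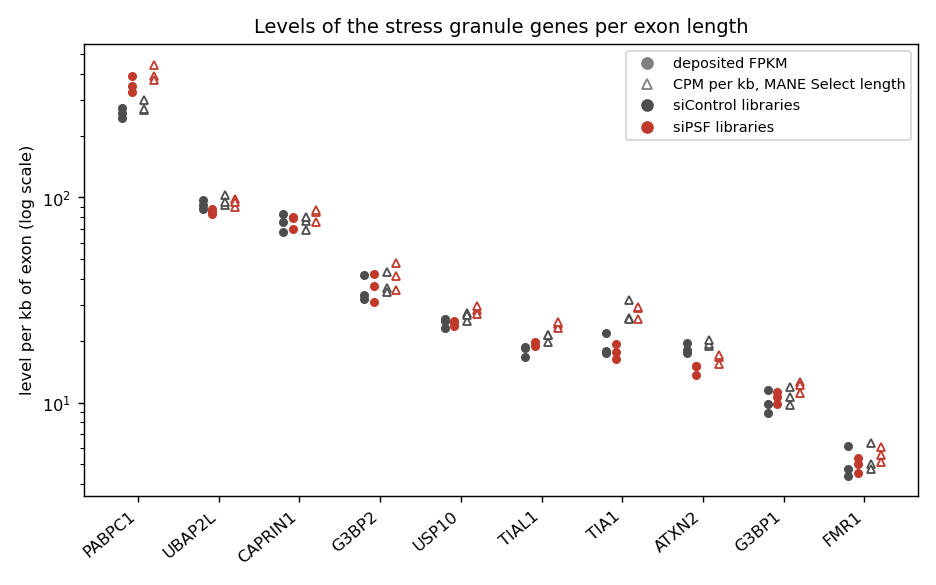
Level of each of the 10 stress granule genes per kilobase of exon (y axis, log scale) in the siControl (grey) and siPSF (red) libraries, as deposited FPKM (circles) and as CPM per kilobase of the MANE Select transcript (triangles). PABPC1 is highest and FMR1 lowest on both scales, and G3BP2 lies above G3BP1 in every library.

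Other genes of the stress granule pathway were counted from lists of named proteins. Among 32 other stress granule proteins, 3 fell and 1 rose, with a median log2 fold change of -0.05. Over all genes tested, 8.27% were called lower and 6.65% higher, so the 3 lower calls are near the background. The genes that fell were PRRC2C and PRRC2B, large RNA-binding proteins found in granules, and ELAVL4, a neuronal protein that binds AU-rich mRNAs. PRRC2C, PRRC2B and ELAVL4 span 108, 127 and 156 kb. Protein-coding genes of 100 to 200 kb had a median log2 fold change of -0.11, with 16.6% called lower. The part of gene length in these falls was not tested. PRRC2C was at 273, 291 and 346 CPM in siControl and 216, 220 and 233 CPM in siPSF (log2 fold change -0.44, SE 0.10, adjusted p = 0.0098 with edgeR), and was called lower in all 12 alternatives. ELAVL4 was at 272 ± 41.8 and 198 ± 20.3 CPM (SD, n = 3; log2 fold change -0.46, adjusted p = 0.018 with edgeR), and its call was lost without siControl replicate 3 (-0.34, adjusted p = 0.065) or siPSF replicate 2 (-0.40, adjusted p = 0.058). PRRC2B was at 556 ± 14.1 and 445 ± 29.7 CPM (SD, n = 3; -0.32, adjusted p = 0.023 with edgeR) and is named after its values were seen. Without siControl replicate 2 or without siPSF replicate 1, PRRC2C and ELAVL4 were the only 2 genes of this list called lower. PRRC2B thus lost its call in both of those fits. The gene that rose was DDX1, an RNA helicase, at 133, 121 and 135 CPM in siControl and 175, 161 and 177 CPM in siPSF (0.40, SE 0.08, adjusted p = 0.0073 with edgeR). Its call was lost without siControl replicate 2 (0.34, adjusted p = 0.052) and on FPKM scaled to an equal sum (0.21, adjusted p = 0.12).

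The eIF2 list held the 3 subunits of eIF2, the factor that brings the initiator tRNA to the ribosome, with the eIF2 kinases and phosphatase subunits. All 3 subunits rose among its 9 genes, none of the 9 fell, and the median was 0.12. Over all genes tested, 6.65% were called higher and 8.27% lower. The subunits span 23.9 to 26.2 kb, and 8.27% of protein-coding genes of 10 to 30 kb were called higher. The part of gene length was not tested. EIF2S3 was at 220, 208 and 236 CPM in siControl and 307, 293 and 338 CPM in siPSF (log2 fold change 0.50, SE 0.09, adjusted p = 0.0029 with edgeR). EIF2S2 was at 107 ± 7.92 and 145 ± 9.50 CPM (SD, n = 3; 0.43, adjusted p = 0.0065 with edgeR), and EIF2S1, the subunit that the kinases phosphorylate, at 93.0 ± 3.86 and 115 ± 6.79 CPM (SD, n = 3; 0.31, adjusted p = 0.024 with edgeR). Of the 9 genes, 5 were higher without overlap between the groups, whereas 16.7% of all genes tested were. They were the 3 subunits and the kinases EIF2AK4 (0.21, adjusted p = 0.14 with edgeR) and EIF2AK1 (0.05, 0.68). Both kinases are named after their values were seen. EIF2S3 was called in all 12 alternatives. EIF2S2 lost its call on FPKM scaled to an equal sum (0.22, adjusted p = 0.12), and EIF2S1 lost it there (0.12, 0.36), on plain FPKM (0.23, 0.082), without siControl replicate 2 (0.27, 0.12) and without siPSF replicate 1 (0.28, 0.11). The kinases and phosphatase subunits did not pass the edgeR test. On FPKM scaled to an equal sum 1 of them was called lower, where 23.0% of all genes were.

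P-bodies are the related assemblies that hold decapping and decay factors. Of 25 such genes, AGO3, an Argonaute protein of miRNA silencing, fell and none rose, with a median log2 fold change of -0.06. Over all genes tested, 8.27% were called lower and 6.65% higher. AGO3 spans 142 kb, and 16.6% of protein-coding genes of 100 to 200 kb were called lower. The part of gene length in its fall was not tested. AGO3 was at 61.4, 65.2 and 77.0 CPM in siControl and 54.3, 50.3 and 51.7 CPM in siPSF (-0.38, SE 0.10, adjusted p = 0.022 with edgeR). Its adjusted p rose to 0.055 without siControl replicate 2 (-0.42), 0.060 without siControl replicate 3 (-0.28), 0.062 without siPSF replicate 2 (-0.36) and 0.068 with limma on log2(FPKM + 0.5) (-0.35). TNRC6B, a scaffold of miRNA silencing, was at -0.36 (adjusted p = 0.061 with edgeR) and LSM14A, a P-body assembly factor, at 0.24 (0.090). Both passed with the replicate block (adjusted p = 0.034 and 0.043), and TNRC6B also with the DESeq2 Wald test (-0.37, 0.023), without siControl replicate 1 (-0.45, 0.027) and without siPSF replicate 3 (-0.43, 0.024). Of 12 genes for clearance or modification of granules none was called with edgeR, with 1 lower and 1 higher at an unadjusted p under 0.05, and the median was 0.11. Those with the smallest p-values were the autophagy kinase ULK2 (-0.35, adjusted p = 0.051), ZFAND1 (0.33, 0.071) and the kinase DYRK3 (0.20, 0.19). ULK2 was called lower in 5 of 12 alternatives: DESeq2 size factors (adjusted p = 0.0496), the DESeq2 Wald test (0.019), plain FPKM (0.044), FPKM scaled to an equal sum (0.021) and without siPSF replicate 2 (-0.43, 0.038). ZFAND1 was called higher in 3: the replicate block (adjusted p = 0.033), the DESeq2 Wald test (0.045) and without siPSF replicate 2 (0.41, 0.049).

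**Figure D5:**
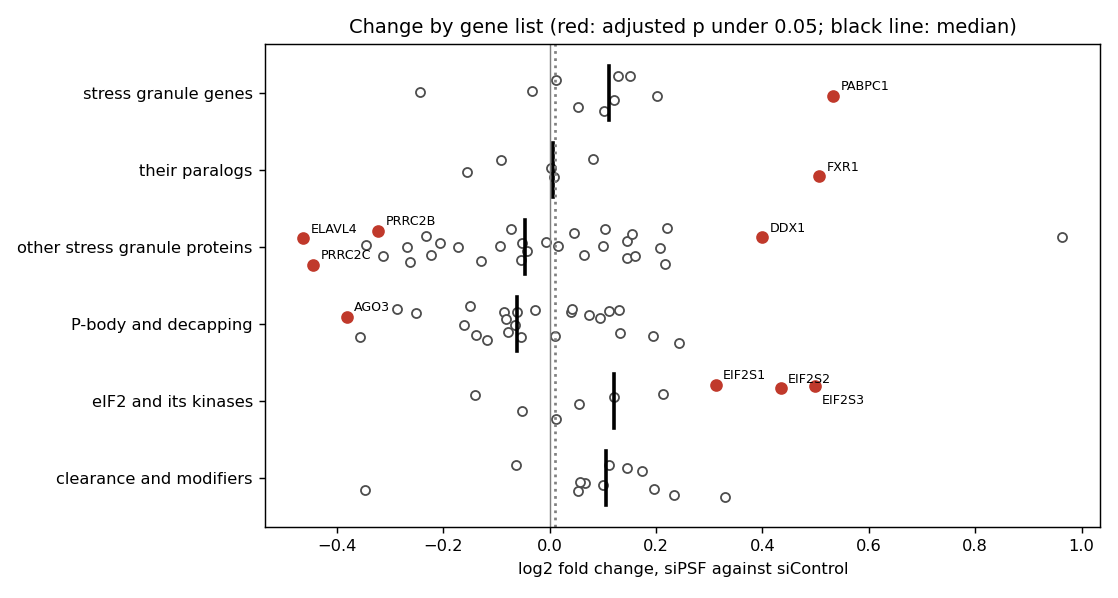
Log2 fold change of siPSF against siControl (x axis) for the genes of the 6 lists (rows), with a point per gene, red where the adjusted p was under 0.05, and the list median as a black line. The red points are PABPC1, FXR1, ELAVL4, PRRC2C, PRRC2B, DDX1, AGO3 and the eIF2 subunits, and the open point at 0.96 is YBX3, named after its value was seen, with siControl and siPSF means of 0.158 and 0.308 CPM.

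Genes with a pattern most like those of G3BP1 and G3BP2 were sought by Pearson's r of log2 CPM over the 6 libraries, among 10016 protein-coding genes averaging 10 CPM or more. For G3BP1 these were VAMP7 (r = 0.9996), NUDT4 (0.9988) and C5orf15 (0.9943). VAMP7, at 18.4, 16.7 and 20.8 CPM in siControl and 22.0, 19.3 and 21.3 CPM in siPSF, shared with G3BP1 the low replicate 2 of each group. For G3BP2 the most similar genes were GNA13 (r = 0.9989), PHF14 (0.9959) and NSUN3 (0.9956). GNA13 was at 73.7, 68.6 and 91.0 CPM in siControl and 85.5, 70.0 and 104 CPM in siPSF, high in replicate 3 of both groups as G3BP2 was. With 6 libraries and that many candidates, values of r this high are a description of these libraries.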

How the data were processed

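RNA-seq of SH-SY5Y cells treated with siControl or siPSF (3 libraries each) was used, grouped by the sample titles. The table deposited by the authors gives counts and FPKM for every gene in each library. For these counts and FPKM, the study's methods name Bowtie 2 (rRNA removal), TopHat, hg38 and RefSeq, whereas the submitters' processing notes list Trimmomatic, HISAT2 2.1.0, StringTie 2.1.3b and GRCh38; which of them the authors used for the deposited counts was not settled. The smallest count is 1, and genes lacking a read in 1 or more libraries were not analysed here. RefSeq GRCh38.p14 matched 20822 gene IDs (97.75%) and gave positions and lengths.

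Counts were filtered with filterByExpr (19694 genes left), scaled by TMM (0.964 to 1.053) and tested with edgeR 4.0.16 (quasi-likelihood, no replicate block) in R 4.3.3, since the methods state no count test. SE is the log2 fold change over the root of F. Adjusted p-values are Benjamini-Hochberg values over all genes tested, called under 0.05. Alternatives were a replicate block, DESeq2 1.42.0 size factors and Wald test, no filter, limma 3.58.1 on log2(FPKM + 0.5), plain or scaled to an equal sum per library (mean FPKM of at least 0.5), and each library left out. Levels by MANE Select length (GENCODE) were added after the data were seen. At these depths the spread between 3 libraries limits the precision.

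Named genes were the 10 members, SFPQ, 6 paralogs, the 3 genes of smallest unadjusted p in each other pathway list and the 3 most like G3BP1 and G3BP2. The members and lists were chosen with earlier results of these data known.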

Additional observations from a re-analysis of the deposited data

How the results depend on the processing

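The tests of genes and the counts of calls were recomputed under 12 alternatives, the paralog ratios on counts and without 1 library, and the level order with rescaled FPKM and MANE lengths. Correlations, length classes, marker sums and motif counts were not recomputed. SFPQ was called lower in all of them (-1.18 to -0.90; without 1 library -1.07 to -0.90), and PABPC1 was the only stress granule gene called higher in each. Stress granule genes called lower went from 0 to 1 with the DESeq2 Wald test, 1 with limma on log2(FPKM + 0.5) and 2 with limma on FPKM scaled to an equal sum, and stayed at 0 in the fits without 1 library. The median of all genes was 0.0097 in the edgeR fit, -0.06 with limma on plain FPKM and -0.16 on FPKM scaled to an equal sum. Lower calls made up 55.4%, 70.8% and 88.0% of all calls there, with 1628 lower and 1310 higher, 1782 and 736, and 3409 and 463. The median of the 10 genes with that scaling was -0.10, 0.06 above all genes, against 0.10 above in the edgeR fit. It was 0.04 to 0.18 without 1 library. Under that scaling, directions turned for G3BP1 (-0.037), G3BP2 (-0.076), TIA1 (-0.21), TIAL1 (-0.0018), CAPRIN1 (-0.084), USP10 (-0.11) and FMR1 (-0.12), and on plain FPKM for TIA1 (-0.10), USP10 (-0.00072) and FMR1 (-0.015). Without 1 library, TIA1 ranged from -0.052 to 0.12, UBAP2L from -0.067 to 0.0050 and FMR1 from -0.042 to 0.19. The cause was not tested.

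Over the 84 genes of the 5 other lists, 4 were called lower and 5 higher, beside 8.27% and 6.65% of all genes tested. Lower calls numbered 9 with the DESeq2 Wald test, 8 on plain FPKM and 21 on FPKM scaled to an equal sum, both over the 80 genes that passed the FPKM filter, and 2 to 7 without 1 library (2 without siControl replicate 2 or 3, 7 without siPSF replicate 3). Higher calls numbered 3 on plain FPKM, 1 on FPKM scaled to an equal sum and 2 to 6 without 1 library (2 without siControl replicate 2). Over all genes, leaving out siControl replicate 2 gave 928 lower and 572 higher. The DESeq2 Wald test called 10.7% of all its genes lower, plain FPKM 12.0% and FPKM scaled to an equal sum 23.0%.

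The groups share replicate numbers. The deviations of same-numbered libraries from their group means correlated at -0.02, 0.04 and 0.05 over all genes and at -0.04, 0.20 and 0.098 over genes above 1 CPM. Over all genes siPSF replicate 3 alone correlated best with its own number, and over genes above 1 CPM siPSF replicates 2 and 3 did. Not every pair was over 0.1 in either, so the numbers were not taken to pair the libraries. With the replicate block, 0 stress granule genes were called lower and 1 higher, 6 and 7 of the other lists, and 1640 and 1389 of all genes. The SE of each stress granule gene was smaller with the block than in the fit as reported. It was 0.069 against 0.119 for G3BP2 (adjusted p = 0.28 with the block in edgeR). For G3BP1 it was 0.073 against 0.094 (0.19) and for FMR1 0.085 against 0.121 (0.67).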
